A study of Rattus norvegicus with 6 samples.

Results

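The 10 genes described here encode 8 lysosomal cathepsins (Ctsa, Ctsb, Ctsd, Ctsh, Ctsk, Ctsl, Ctss and Ctsz) and 2 cystatins (Cst3 and Cst6), and were chosen by symbol from the 18923 genes of the deposited files. All 10 symbols were found, each with 1 identifier. Expression was measured by RNA-seq in primary chondrocytes, the cells of cartilage, isolated from wild-type female Sprague-Dawley rats aged 24 h and used at passage 1 or 2. All-trans retinoic acid at 1 µM was given for 24 h to 3 samples (RA) and left out of 3 controls (CON); the medium of both was DMEM high in glucose, with serum (10% FBS) and, per the labels, antibiotics (penicillin-streptomycin). RA is the acid form of vitamin A and a ligand of nuclear receptors that bind DNA. The comparison asks which genes change their expression in chondrocytes given RA. The methods call the samples independent but do not tie them to separate animals, so p-values measure the spread between these cultures.

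Cathepsins are proteases made as inactive precursors, sorted to the lysosome and activated at acid pH. Most are cysteine proteases (Ctsb, Ctsh, Ctsk, Ctsl, Ctss and Ctsz), whereas cathepsin D is an aspartic and cathepsin A a serine protease. Cystatins are small inhibitors that block cysteine cathepsins, mainly outside the cell, and do not inhibit cathepsin D. Cathepsins K, B, L and S can cleave collagen or aggrecan when secreted, for which they are studied in cartilage and bone.

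Total counts ran from 29370025 to 38007486 per sample. CON sample 1 stood apart from the other controls: the chi-square of its counts against CON samples 2 and 3, per degree of freedom over all tested genes, was 39.4 and 63.5, while every other pair within a group lay between 6.4 and 8.13. The test of each member is therefore also given without this sample. The 14 chondrocyte markers examined were all tested and summed to 8559.8, 10374 and 10627 FPKM in the 3 CON samples, CON sample 1 being the lowest, and to between 5404.5 and 5764.3 in RA. All 14 fell in RA, the highest, Col2a1 (the main cartilage collagen), by a log2 value of -0.78 (adjusted p = 0.00457, edgeR), and the part of this shift in the results on cathepsins and cystatins was not tested. Of the 14 macrophage markers found in the files, 11 stayed below 1 FPKM in every sample, and the list summed to between 3.16 and 4.05 FPKM in CON and 2.64 and 3.67 in RA. Of the 7 osteoclast markers, 5 stayed below 1 FPKM, among them Calcr, named because it was at 0 in every sample, and the sums were 11.3 to 14.5 in CON and 12.9 to 13.5 in RA. The 9 fibroblast and perichondrium markers summed to 4004 to 5127.7 FPKM in CON and 5041.5 to 5279.5 in RA, with 2 called higher (Pdgfra, 0.44, and Twist1, 0.43, log2 fold change) and 2 lower (Dcn, -0.41, and Postn, -1.28), named because they were called, while the highest, Col1a1, was not called (0.21, adjusted p = 0.301, edgeR). Endothelial markers summed to 5.69 to 8.26 FPKM in CON and 6.64 to 7.36 in RA, most of it Egfl7 (log2 fold change -0.12). None of 3 tested was called by edgeR, and 1, Plvap, was at an unadjusted p below 0.05. Plvap had a log2 fold change of 0.87 (unadjusted p = 0.0283, edgeR), without overlap between groups. Tek, the third tested, had 0.15 (unadjusted p = 0.84, edgeR). Both were named with their values known, and had up to 33 and 23 counts in a sample, in that order. Skeletal muscle markers summed to 9.69 to 12.04 FPKM in CON and 9.44 to 11.3 in RA, with 1 of 4 tested called higher (Myod1, log2 fold change 1.93, adjusted p = 0.0142, edgeR) and 1 lower (Tnnt3, -1, adjusted p = 0.0214), both DEGs and both named because they were called. The highest muscle marker, Des, which encodes desmin, had a log2 fold change of 0.39 (adjusted p = 0.0766).

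The members spanned about 4 orders of magnitude in FPKM, a level per gene length. The lower end was Ctss, at no more than 6 counts a sample. Ctsl, whose protein is a potent endopeptidase, was the highest in both groups, at 704 ± 65.9 FPKM (SD, n = 3) in CON and 819 ± 14 (SD, n = 3) in RA, ranks 87 and 75 among all genes. In CON it was followed by Ctsd, Ctsb, Cst3, Ctsa, Ctsh, Ctsk, Ctsz, Cst6 and Ctss. Of these neighbours, Ctsb and Cst3 overlapped between samples (432 to 450 and 360 to 449 FPKM), as did Ctsk and Ctsz (21.9 to 28.6 and 17.8 to 24.7), so neither pair was ordered beyond its spread. In RA the order differed in 2 places: Ctsb stood above Ctsd, and Ctsz above Ctsk, the latter again with overlapping samples. Together the 10 genes made up between 0.498% and 0.518% of all FPKM in CON and between 0.515% and 0.546% in RA, and these ranges overlapped.

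**Figure D1:**
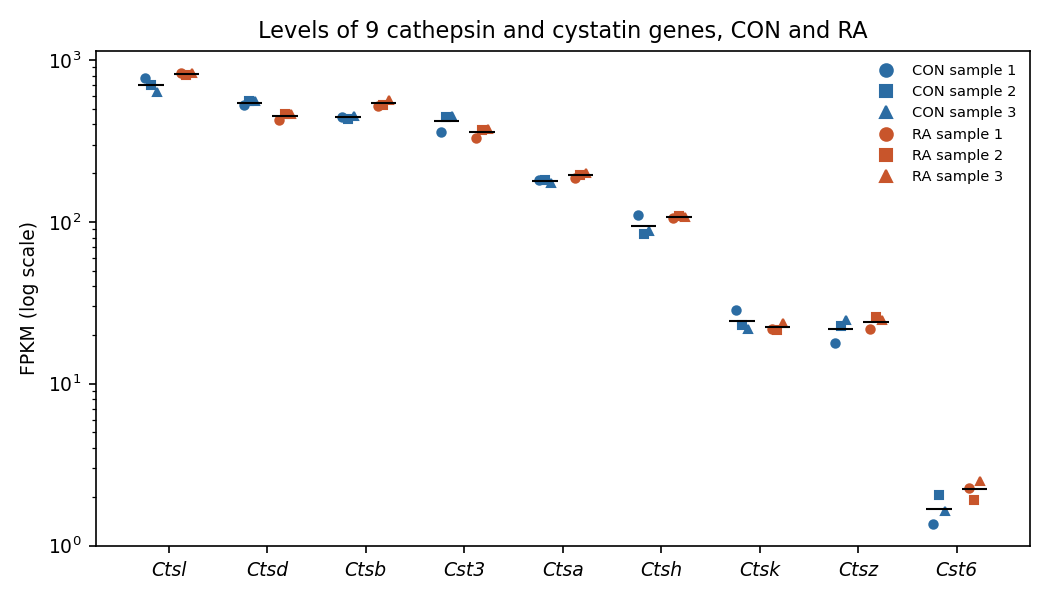
FPKM (log axis) of 9 members in each CON (blue) and RA (orange) sample, with the group mean as a black line; Ctss, with at most 6 counts in a sample, is left out. The genes run from Ctsl at 704 FPKM to Cst6 at 1.69 FPKM in CON, while no plotted gene's group means differ by a larger ratio than those of Cst6 (1.69 and 2.23 FPKM).

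Differences with RA went in both directions, and none of the tested members passed the fold threshold used here. Of the 10 members, 9 passed the filter on low counts; 2 were called at an adjusted p below 0.05 by edgeR's quasi-likelihood test, Ctsb (higher in RA) and Ctsd (lower in RA). That test called 9.82% of all 13438 genes, 5.31% as higher and 4.5% as lower. No member was a DEG, a gene that also exceeded a log2 fold change of 0.58, against 4.96% of all genes (2.67% higher and 2.29% lower). An unadjusted p below 0.05 was found for 4 members, against 24% of all genes, and DESeq2 and limma also gave 0 DEGs among the members. The FPKM of the groups did not overlap for 3 members that were higher in RA (Ctsa, Ctsb and Ctsl) and 1 that was lower (Ctsd), where 18.9% and 13.3% of all tested genes did so. The median log2 fold change of the 9 tested members was 0.13, beside -0.006 over all tested genes, and the median of its absolute value was 0.21, beside 0.16. The 95% interval of the change lay within ±0.58 for 8 of the 9, all but Cst6. When CON sample 1 was left out, 5 of the 9 were called, where 16.5% of 13623 tested genes were. These were Ctsb, Ctsh and Ctsl (higher, background 8.65%) and Ctsd and Cst3 (lower, background 7.8%). Dropping CON sample 2, or RA sample 2 or 3, left no member called, and dropping RA sample 1 left 1; 657 to 721 genes in all were called in these fits.

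**Figure D2:**
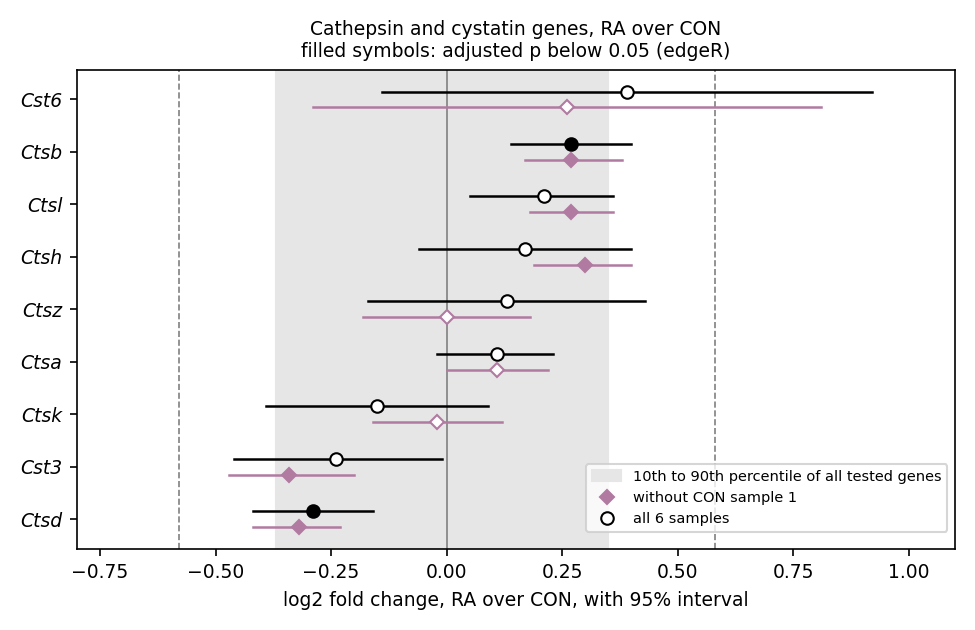
Log2 fold change of RA over CON (x axis) for the 9 tested members, with 95% intervals, from all 6 samples (black circles) and without CON sample 1 (purple diamonds); filled symbols have an adjusted p below 0.05, the grey band spans the 10th to 90th percentile of all tested genes (-0.37 to 0.35) and dashed lines mark ±0.58. Ctsb and Ctsd are filled in both fits, while Ctsh, Ctsl and Cst3 are filled only without CON sample 1.

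Ctsb (ENSRNOG00000010331), a cysteine protease that cuts both inside proteins and from their carboxyl end, was at 444, 432 and 450.0 FPKM in CON and at 519, 530.4 and 569 in RA. All RA samples lay above all CON samples. The log2 fold change was 0.27 (standard error 0.0568, 95% interval 0.14 to 0.40), a rise of 20.9%, with an adjusted p of 0.0187 from edgeR's quasi-likelihood test. The change without CON sample 1 was again 0.27 (adjusted p = 0.00227, edgeR). The call was lost without CON sample 2 (0.25, adjusted p = 0.094), RA sample 2 (0.28, 0.0891) or RA sample 3 (0.23, 0.118). As cells were measured in bulk, more RNA per cell and more cells of one type cannot be told apart here or in the results that follow.

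Ctsd (ENSRNOG00000020206), the main aspartic protease of the lysosome, moved the opposite way. It was at 524, 558 and 556 FPKM in CON and at 428, 461 and 461 in RA, without overlap. The log2 fold change was -0.29 (standard error 0.0582, 95% interval -0.42 to -0.16), a change of -18.3%, with an adjusted p of 0.016 from edgeR. Without CON sample 1 it was -0.32 (adjusted p = 3.77e-04, edgeR). The call was lost without CON sample 2 (-0.28, adjusted p = 0.0769) or without RA sample 1 (-0.25, 0.0826), 2 (-0.31, 0.0659) or 3 (-0.31, 0.0694).

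The 2 called members thus traded places. In each CON sample Ctsb was lower than Ctsd, with FPKM ratios of 0.848, 0.775 and 0.809, and in each RA sample it was higher, with ratios of 1.21, 1.15 and 1.23. The mean ratio was 0.811 ± 0.0365 (SD, n = 3) in CON and 1.2 ± 0.0416 (SD, n = 3) in RA. This ratio was formed after the values were seen and was given no test.

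**Figure D3:**
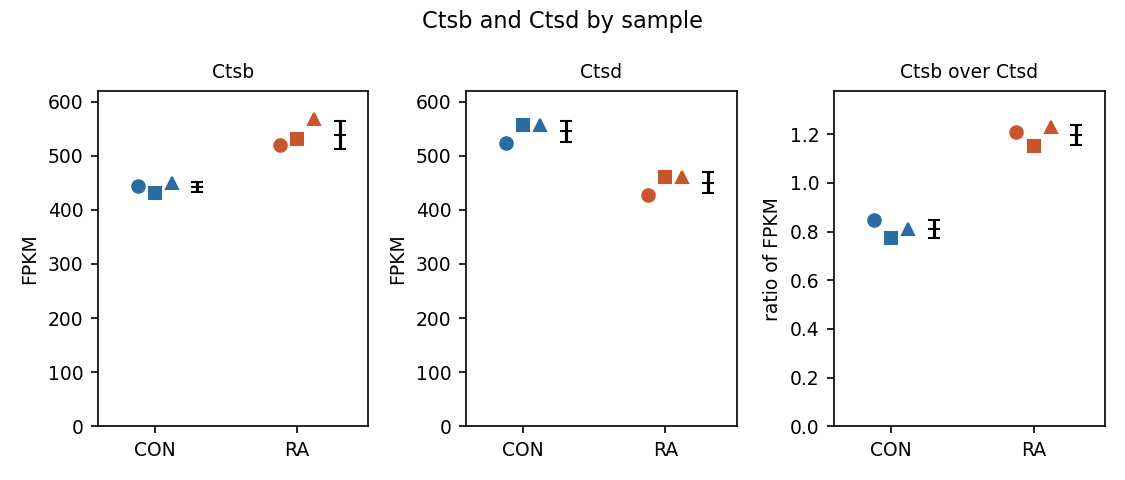
FPKM of Ctsb and Ctsd and their ratio (y axes from 0) in each CON (blue) and RA (orange) sample, with the mean and SD of each group in black (circles, squares and triangles are samples 1, 2 and 3). Ctsb is higher and Ctsd lower in every RA sample, and the ratio passes from 0.775 to 0.848 in CON to 1.15 to 1.23 in RA.

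Promoter sequences are shown here for the gene that fell, Ctsd. Promoters (250 bases before to 50 bases after the start site, RefSeq, GRCr8) were found for 8 of the 10 members, all but Ctsb and Cst6. They were searched on both strands for CACGTG, the core of the E-box that the lysosomal transcription factors of the TFEB family bind, for the longer TCACGTGA, which contains it, and for direct repeats of AGGTCA spaced by 2 or 5 bases, the arrangement bound by retinoic acid receptors. Ctsd held CACGTG 2 times, at -157 to -152 and -10 to -5 from the start site, the second inside a TCACGTGA at -11 to -4. None of the other 7 promoters held either motif. Of 33469 promoters, 6.42% held CACGTG, 0.52% held it at least 2 times, and 0.777% held TCACGTGA. None of the 8 held a direct repeat of either spacing, either exact or with A or G at the first and G or T at the third base of each repeat unit. Over all promoters, 0.17% and 0.382% held the looser repeats at spacings of 2 and 5. The Ctsd promoter is shown with CACGTG in capitals, beside that of Ctsl, the most abundant member, which has none.
Ctsd (chr1:206968772-206969071, minus strand): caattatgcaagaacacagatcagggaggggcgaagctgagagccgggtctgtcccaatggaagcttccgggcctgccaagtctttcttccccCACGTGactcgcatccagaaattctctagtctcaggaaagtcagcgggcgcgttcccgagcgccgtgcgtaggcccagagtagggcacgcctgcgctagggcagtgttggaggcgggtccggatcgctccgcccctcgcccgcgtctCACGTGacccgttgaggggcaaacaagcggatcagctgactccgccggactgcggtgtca
Ctsl (chr17:769854-770153, plus strand): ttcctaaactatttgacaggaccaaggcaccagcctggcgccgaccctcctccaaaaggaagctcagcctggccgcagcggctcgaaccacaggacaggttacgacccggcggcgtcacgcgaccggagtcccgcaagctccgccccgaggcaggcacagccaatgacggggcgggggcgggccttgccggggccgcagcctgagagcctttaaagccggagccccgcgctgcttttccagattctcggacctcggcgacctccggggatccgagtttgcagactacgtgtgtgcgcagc

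Among the other cysteine cathepsins, Ctsl (ENSRNOG00000018566) was at 770, 703 and 638 FPKM in CON and at 827, 803 and 828 in RA. The groups did not overlap, as was the case for 32.2% of all tested genes. Its log2 fold change was 0.21 (standard error 0.0666, 95% interval 0.05 to 0.36, adjusted p = 0.0982, edgeR), which missed the threshold with all samples. Leaving out CON sample 1, the highest control, gave 0.27 (adjusted p = 6.83e-04, edgeR). Ctsl was not called when any other single sample was left out (adjusted p = 0.159 to 0.301, edgeR).

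Ctsh (ENSRNOG00000014064), which trims peptides from their amino end, was at 110, 84.4 and 87.4 FPKM in CON and at 105, 108 and 106 in RA. CON sample 1 lay above all RA samples, the other controls below them. The log2 fold change was 0.17 (95% interval -0.06 to 0.40, adjusted p = 0.342, edgeR) with all samples, and 0.30 (adjusted p = 0.00167) without CON sample 1. Ctsh was not called when any other single sample was left out (adjusted p = 0.448 to 0.646, edgeR).

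Ctsk (ENSRNOG00000021155), the collagen-degrading protease of osteoclasts, was at 28.6, 23.1 and 21.9 FPKM in CON and at 21.8, 21.5 and 23.7 in RA. The groups overlapped. Its log2 fold change was -0.15 (95% interval -0.39 to 0.09, adjusted p = 0.441, edgeR), and -0.02 (95% interval -0.16 to 0.12) without CON sample 1. A rise or fall of Ctsk by 0.58 on the log2 scale was outside both intervals. Of the osteoclast markers, Acp5, which encodes tartrate-resistant acid phosphatase, was at 5.98 ± 1.29 FPKM (SD, n = 3) in CON and 6.77 ± 0.126 in RA, and Nfatc1, an osteoclast transcription factor, at 6.46 ± 0.41 and 5.83 ± 0.112. The third tested marker, Itgb3, an integrin subunit named with its values known, was at 0.716 ± 0.163 and 0.487 ± 0.0657, a log2 fold change of -0.57 (95% interval -1.16 to 0.01, unadjusted p = 0.0537 from edgeR). None of the 3 was called.

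Ctsz (ENSRNOG00000050697), a carboxypeptidase, was at 17.8, 22.8 and 24.7 FPKM in CON and at 21.6, 25.9 and 24.6 in RA, with CON sample 1 the lowest of all. Its log2 fold change was 0.13 (95% interval -0.17 to 0.43, adjusted p = 0.59, edgeR), and without CON sample 1 its interval ran from -0.18 to 0.18. Ctss (ENSRNOG00000021157), the cathepsin typical of antigen-presenting cells, had 3, 3 and 6 counts in CON and 2, 0 and 4 in RA, and was not tested. These counts lie near the limit of 3 that a count of 0 allows, so a fall could not be detected at this depth. The pan-macrophage gene Cd68 was at 1.05 ± 0.125 FPKM (SD, n = 3) in CON and 1.28 ± 0.0277 in RA, with 42 to 48 counts a sample. Of the 14 macrophage markers found, 5 passed the filter on low counts and none was called by edgeR, with 1 at an unadjusted p below 0.05. The other 4 tested markers, named with their values known, lay on both sides of 0: Csf1r had a log2 fold change of 0.91 (95% interval -0.22 to 2.04), Fcer1g -0.22 (-2.28 to 1.84), Lyz2 -0.27 (-1.15 to 0.61) and Laptm5 -0.61 (-1.20 to -0.01, unadjusted p = 0.0462). They had up to 28, 21, 19 and 83 counts in a sample, in that order. The 9 untested markers had at most 8 counts in any sample.

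Ctsa (ENSRNOG00000015857), a serine carboxypeptidase that also protects the lysosomal enzymes Neu1 and Glb1 in a complex, was at 181, 182 and 174 FPKM in CON and at 186, 196 and 201 in RA. The groups did not overlap, but the log2 fold change was 0.11 (standard error 0.0553, 95% interval -0.02 to 0.23) and was not called (adjusted p = 0.294, edgeR), nor was it without CON sample 1 (0.11, adjusted p = 0.155). Its partners were not called either. Neu1, a sialidase, named after its values were seen, had a log2 fold change of 0.17 (95% interval 0.02 to 0.32, adjusted p = 0.163, edgeR), and Glb1, a galactosidase named likewise, had -0.12 (95% interval -0.28 to 0.04, adjusted p = 0.332, edgeR).

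Of the inhibitors, Cst3 (ENSRNOG00000005195), which encodes the secreted cystatin C, was at 360, 444 and 449 FPKM in CON and at 329, 369 and 374 in RA. CON sample 1 lay within the RA range and the other controls above it. The log2 fold change was -0.24 (standard error 0.0993, 95% interval -0.46 to -0.01, adjusted p = 0.192, edgeR), which was not a call. With the replicate number as a block it was -0.23 (adjusted p = 0.0385, edgeR), which was a call. Without CON sample 1, and with no block, it was -0.34 (95% interval -0.47 to -0.20, adjusted p = 0.00237, edgeR), a change of -20.8%. Cst3 was not called when any other single sample was left out (adjusted p = 0.306 to 0.437, edgeR).

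Cst6 (ENSRNOG00000020455), which encodes cystatin E/M, an inhibitor of cathepsins and of the asparaginyl protease legumain, was low, at 1.36, 2.06 and 1.64 FPKM in CON and 2.26, 1.92 and 2.51 in RA, or 35 to 65 counts a sample. Its log2 fold change was 0.39 with a wide interval (-0.14 to 0.92, adjusted p = 0.352, edgeR), so a change beyond 0.58 lay within the interval at this depth; the value without CON sample 1 was 0.26 (adjusted p = 0.564). Lgmn, which encodes legumain and was named after its values were seen, was at 52.5 ± 6.53 FPKM in CON and 50.2 ± 0.104 in RA. Its log2 fold change was -0.08 (95% interval -0.28 to 0.12), and it was not called.

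The balance of RNA between the proteases and the 2 cystatins among the members was described by the summed FPKM of the 6 cysteine cathepsins over that of Cst3 and Cst6. Cstb, an intracellular inhibitor described below, was not in the sum. RNA levels do not measure active protease or inhibitor. The cathepsin sum was 1371, 1266 and 1222 FPKM in CON and 1495, 1489 and 1551 in RA. The cystatin sum was 361, 446 and 450.4 FPKM in CON and 331, 371 and 377 in RA. The ratio was therefore 3.80, 2.84 and 2.71 in CON and 4.51, 4.01 and 4.12 in RA, without overlap between the groups. The log2 of the ratio of the group means was 0.44, and ran from 0.34 to 0.60 when single samples were dropped, 0.60 being the value without CON sample 1. Since it is a score over chosen genes, it was not tested. Ctsl and Ctsb held 52.2% to 56.2% and 32.4% to 36.8% of the cathepsin sum in every sample, so the ratio describes mainly these 2 genes against Cst3.

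**Figure D4:**
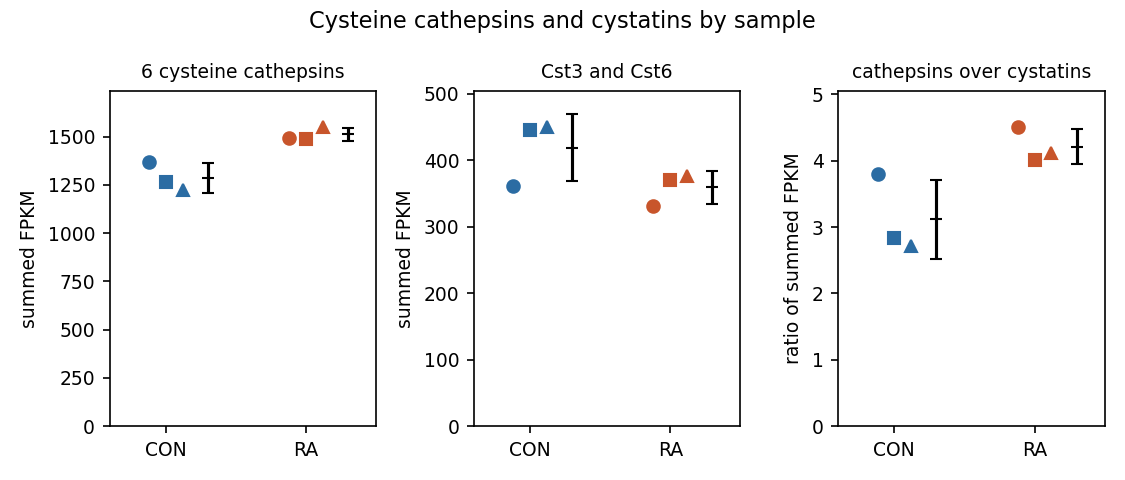
Summed FPKM of the 6 cysteine cathepsins, summed FPKM of Cst3 and Cst6, and their ratio (y axes from 0) in each CON (blue) and RA (orange) sample, with mean and SD in black (circles, squares and triangles are samples 1, 2 and 3). The ratio is 2.71 to 3.80 in CON and 4.01 to 4.51 in RA, with CON sample 1 the nearest to RA.

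The other cathepsins and cystatins of the files were mostly low. Of 15 further cathepsins, 4 were found and 2 tested. Of 25 genes listed as further cystatins and related inhibitors, 7 were found and 3 tested. None was called. The 3 include Cystm1, which encodes a membrane protein that is not a cystatin. Ctsf and Cstb were picked for description with their values known. The other tested genes, named likewise, had no more than 87 counts in a sample. Their log2 fold changes were -0.2 for Ctsc (95% interval -0.7 to 0.3) and 0.87 for Cst7 (-0.16 to 1.91). Cystm1 had 0.55 (0.03 to 1.08, unadjusted p = 0.0404, edgeR). Ctsf, a cysteine cathepsin, was at 19.9 ± 0.494 FPKM (SD, n = 3) in CON and 22.5 ± 0.693 in RA (log2 fold change 0.16; adjusted p = 0.171, edgeR). Cstb, which encodes stefin B, the intracellular inhibitor, was the only one of these at a level near that of Cst3. It was at 259, 196 and 196 FPKM in CON and at 214, 214 and 221 in RA, so CON sample 1 lay above all others. Its log2 fold change was -0.01 (95% interval -0.26 to 0.23), and 0.13 (95% interval 0.02 to 0.23, adjusted p = 0.0983, edgeR) without that sample.

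The rest of the lysosomal system was compared through 9 lists of 136 genes in all, the further cathepsins and cystatins included, of which 104 were found and 96 tested. Of these, 4 rose and 2 fell, 6.25% of those tested, against 9.82% of all genes, and none was a DEG. With CON sample 2 or any one of the RA samples dropped, 1 list gene was called. Their median log2 fold change was 0.06. None of the 11 genes listed as other lysosomal peptidases, the 16 subunits of the proton pump that acidifies the lysosome (V-ATPase) or the 3 tested transcription factors of the TFEB family was called, with medians of 0.05, 0.03 and 0.11. The list of 11 also held Ppt1 and Ppt2, which encode thioesterases, and Pgpep1, a peptidase of the cytosol, all named with their values known. Mannose 6-phosphate tagging and sorting bring cathepsins to the lysosome. Among the 14 genes listed for them, 1 was called, though it neither tags nor sorts cathepsins itself. This was Grn, which encodes progranulin, a secreted and lysosomal protein, at 193, 241 and 251 FPKM in CON and 297, 310 and 323 in RA (log2 fold change 0.43, 95% interval 0.20 to 0.66, adjusted p = 0.0302, edgeR). Leaving out CON sample 1, the lowest, gave 0.32 (adjusted p = 8.65e-04).

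In the other lists, 2 of 10 genes listed with the lipid and phosphate hydrolases rose, neither of which encodes a hydrolase. Npc1, a cholesterol exporter, rose by 0.35 on the log2 scale (adjusted p = 0.00574, edgeR). Gm2a, the activator of ganglioside breakdown, rose by 0.28 (adjusted p = 0.0299, edgeR). No hydrolase of this list was called. Npc1 went from 18 ± 0.182 FPKM (SD, n = 3) to 23.3 ± 0.547, and Gm2a from 135 ± 7.59 to 166 ± 7.19, both without overlap between groups. Of 15 membrane proteins, Cd63, a tetraspanin of late endosomes, rose by 0.28 (adjusted p = 0.0234, edgeR), and Slc17a5, the sialic acid exporter, had a lower level, with a log2 fold change of -0.44 (adjusted p = 0.0192). Cd63 was at 339 ± 20.1 FPKM (SD, n = 3) in CON and 416 ± 6.76 in RA, and Slc17a5 at 9.49 ± 0.803 and 7.05 ± 0.562. Of 22 glycosidases and sulfatases, 1 fell, Hyal1, a hyaluronidase, from 13.7 ± 0.762 FPKM (SD, n = 3) to 10.6 ± 0.415 (log2 fold change -0.38, adjusted p = 0.0212, edgeR). Without CON sample 1, 9 of the tested lysosomal genes were called, 7 higher and 2 lower, where 16.5% of all genes tested in that fit were called (8.65% higher and 7.8% lower); they were the 6 above and Lrp1, Tfe3 and Atp6v1e1, named for this count.

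**Figure D5:**
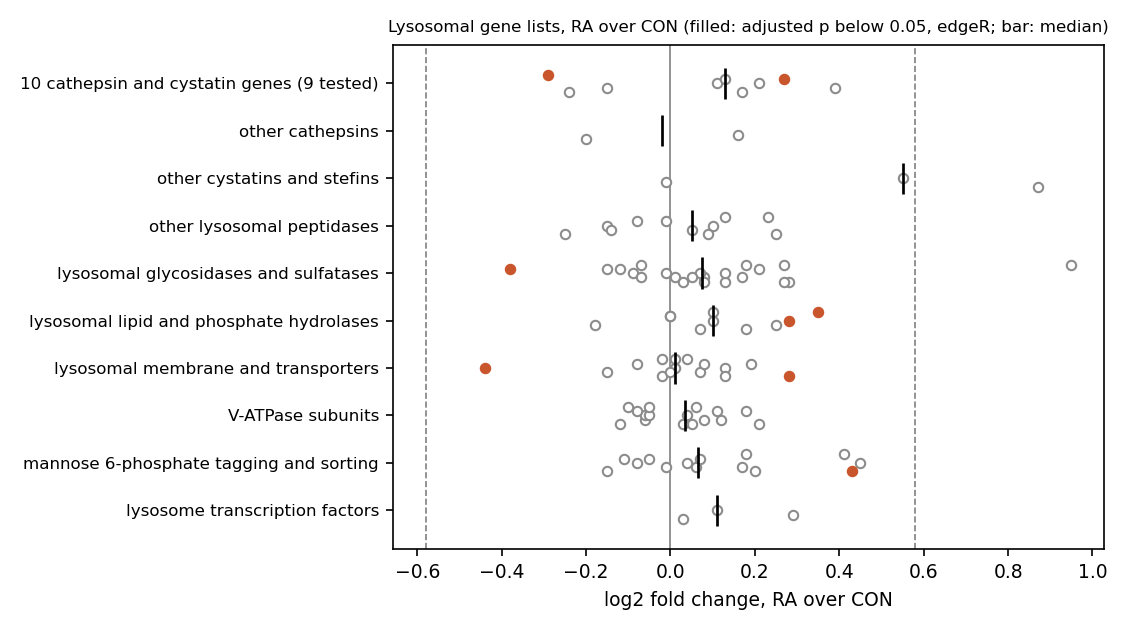
Log2 fold change of RA over CON (x axis) for the 9 tested members and the tested genes of 9 lysosomal lists (rows), 1 circle per gene; filled circles have an adjusted p below 0.05 (edgeR, all 6 samples), black bars are list medians and dashed lines mark ±0.58. Of the 96 list genes, 4 are filled to the right and 2 to the left of 0, and no filled circle passes a dashed line.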

How the data were processed

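Poly(A) RNA of primary rat chondrocytes was sequenced in 3 CON and 3 RA samples, and groups and replicate numbers were taken from the sample labels. The authors deposited 1 table a sample, with whole-number read counts (not normalized) of 18923 genes. The same tables, as deposited, hold an FPKM for every gene. The submitters' processing notes name HISAT2, HTSeq 0.13.5 and the rat build Rnor_6.0. The annotation and strand setting are not given in the sources used here. The count-to-FPKM ratio showed that FPKM is the count scaled by gene length and by total count, with no further normalization between samples.

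Counts were tested with edgeR 4.0.16 in R 4.3.3 (filterByExpr with a minimum count of 10, TMM, quasi-likelihood test, no covariates), and 13438 genes passed the filter. P-values were adjusted by Benjamini-Hochberg over all tested genes. A gene was called at an adjusted p below 0.05, and was a DEG if its log2 fold change also exceeded 0.58 in either direction. Standard errors came from the F statistic. Intervals at 95% used the total degrees of freedom of the same fit. Totals ran from 29370025 to 38007486 counts, so 3 counts, the most that a count of 0 allows, were 0.0789 to 0.102 CPM; this covers counting error only. Statistics were tested on simulated data. Alternatives were RLE, upper-quartile and no scaling factors, DESeq2 1.42.0, limma-voom and limma 3.58.1 on log2(FPKM + 0.1) or log2(FPKM + 1), other filters on low counts, each sample left out, a replicate block and an unadjusted p. The members and lists were chosen with earlier results of these data known. By rule, all 10 members are named. Called genes of each lysosomal list (at most 5 a list) and the highest markers of a cell type (at most 4) could be named; any other gene was named with its values known. Where a symbol had several identifiers, the one with the highest mean count was used. Promoter sequences were taken from RefSeq (GRCr8), matched by symbol. A planned comparison of the members' protein sequences was not made, since no protein sequences were used here.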

Additional observations from a re-analysis of the deposited data

How the results depend on the processing

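No member was a DEG in any of the 16 alternative fits, and no tested member changed direction in them, though Ctsz was at 0.00 (log2) without CON sample 1. Ctsb and Ctsd were both called under every other scaling, filter and tool tried (RLE, upper-quartile or no scaling factor, DESeq2, limma-voom, limma on FPKM with either pseudocount, no filter and the FPKM filter). With each sample left out in turn, between 0 and 5 members were called, between 1 and 9 genes of the lysosomal lists, and between 657 and 2242 genes in all (2242 without CON sample 1, 1316 without CON sample 3, at most 721 without any other). Dropping CON sample 2, or RA sample 2 or 3, left no member called, and dropping RA sample 1 left 1, Ctsb; each of these fits compares 3 samples with 2. The cause of the higher counts without CON sample 1 was not tested. At an unadjusted p below 0.05 with the fold threshold, 0 members, 0 lysosomal list genes and 1017 genes in all passed; limma on log2(FPKM + 1) gave 434 DEGs in all, where the larger pseudocount shrinks low genes. With the replicate number as a block, 3 members were called, Cst3 (adjusted p = 0.0385, edgeR) beside Ctsb and Ctsd, 9 lysosomal list genes and 1595 genes in all. Deviations of same-numbered samples correlated at 0.09, -0.01 and 0.01, and those of differently numbered samples at -0.12 to 0.11. These values show no pairing by number, but with 3 samples a group they cannot exclude one. Depth limits Ctss, at no more than 6 counts, and Cst6, at no more than 65.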
